A study of Mus musculus with 6 samples.

Results

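The serpins are a family of proteins that fold into a strained shape with an exposed loop, and most of them trap and inactivate the protease that cuts this loop. Members are grouped into clades by sequence. Clade A holds secreted serpins of the plasma and of inflamed tissue, clade B holds serpins that act inside cells against leukocyte proteases, and the other clades hold the inhibitors of blood clotting and of plasminogen activation. A few members inhibit no protease, such as the collagen chaperone Serpinh1. The genes described here are the rows of the expression table that were protein coding and carried a symbol of the form Serpin followed by a clade letter from a to i and a number, without Serping1. This rule gave 26 of the 17924 genes in the table, namely 8 of clade A, 12 of clade B and 6 of clades C to I. GENCODE (vM21, GRCm38) annotates 60 such genes in the mouse, and the other 34 were not analysed here.

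RNA-seq was carried out on 3 CTL and 3 Nelfb-/- cultures after 14 days in adipocyte differentiation medium, to find the genes that depend on Nelfb, a subunit of the negative elongation factor of RNA polymerase II. The cells were fibroblasts from the dorsal dermis of P0 mice. Nelfb-/- mice were Nelfb fl/fl with Pdgfra-Cre, and CTL mice carried the same Cre with 1 floxed Nelfb allele (fl/wt) or none (wt/wt). All 6 libraries thus came from cells with Cre under Pdgfra control, which acts in the fibroblast lineage but not in every cell type of the skin. The genotype of each CTL culture, and whether a culture came from 1 pup or from several, are not given in the sources used here, so the p-values measure the spread between these cultures. In bulk RNA, fewer cells of a type and less RNA per cell cannot be told apart.

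Levels are CPM (counts per 1e+06 reads on the listed genes), always in the order of replicates 1, 2 and 3. The libraries held between 17.2 and 29.4 M reads, so that a floor of 3 reads was worth 0.102 to 0.175 CPM. Log2 fold changes (Nelfb-/- relative to CTL) were computed with limma on log2(reads + 1) at a common depth of 22.3 M reads for the 16252 genes that averaged 10 reads or more, or 0.448 CPM. For genes near the floor the scale gives changes that are too small. The threshold for a call was an adjusted p of 0.05 together with a 2-fold change. Nelfb itself stood at 17.3, 19.6 and 22.3 CPM in CTL and at 5.50, 3.90 and 5.55 CPM in Nelfb-/- cells (log2 fold change -1.99, SE 0.22, limma, adjusted p = 0.0050). CTL replicate 3 and Nelfb-/- replicate 1 lay at the opposite ends of the second principal component (27.7% of the variance), and results that turn on them are also given without both. CTL replicate 1 held 7.76 CPM on 4 Y-linked genes, against 162 to 264 CPM in the other libraries. All 10 adipocyte markers were present, with summed levels of 19667 to 33139 CPM in CTL cultures and 12458 to 23743 CPM in Nelfb-/- cells. Of these markers, 1 was called higher and 1 lower. The largest part of each sum was Fabp4, at 12706 to 17827 CPM in CTL cultures and 4571 to 10808 CPM in Nelfb-/- cells. The macrophage markers, all 10 of them present, summed to 174 to 678 CPM in CTL cultures and 1714 to 5340 CPM in Nelfb-/- cells, and 9 were called higher. The sums of the 9 fibroblast markers tested and 1 below the filter were 2626 to 11940 CPM and 6413 to 25711 CPM. The largest part of each was Col1a1, and of the 9 markers 2 were called higher and 0 lower.

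Every serpin call was an increase in Nelfb-/- cells, and the calls fell mostly in clade A. Of the 26 genes, 21 were tested, 12 were upregulated past the threshold (limma) and 0 were downregulated, where over all genes tested 7.58% were called higher and 3.64% lower. None of the 21 was lower at an unadjusted p under 0.05 either, whereas 16 were higher at that limit, where 3183 of the 16252 genes tested were higher and 2095 were lower. For 16 of the 21 genes the lowest Nelfb-/- library exceeded the highest CTL library, against 22% of all genes tested, and for 0 genes the reverse held, against 16.1%. The median log2 fold change was 1.84 over the serpins and 0.068 over all genes tested. Serpina10, Serpinb1b and Serpinb9e passed the filter only through the Nelfb-/- libraries and so had to be higher there, and of the other 18 genes tested 10 were called. By clade the counts differed. Clade A held 8 calls among 8 genes tested, clade B held 2 among 8, and clades C to I held 2 among 5, with medians of 3.29, 1.40 and 0.51. Without those 3 genes the calls were 7 of 7 in clade A and 1 of 6 in clade B. Leaving out 1 library at a time gave between 8 upregulated serpins (without Nelfb-/- replicate 3) and 13 (without CTL replicate 3). In every setting tried that tested them, 7 of the 12 genes passed, namely Serpina3f, Serpina3g, Serpina3i, Serpina3k, Serpinb9e, Serpine2 and Serpini1. A filter at a mean of at least 50 reads left out Serpinb9e.

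**Figure D1:**
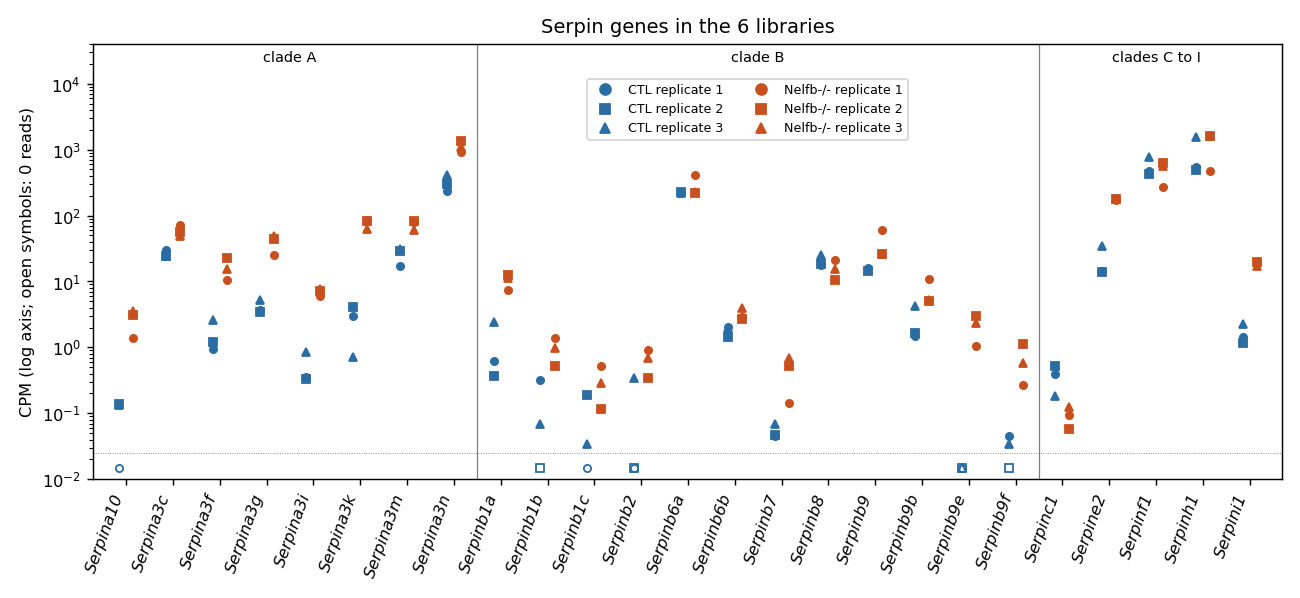
Level of 25 serpin genes in the 6 libraries, in CPM on a log axis, with 1 symbol for each library and an open symbol below the dotted line for 0 reads. Blue symbols are CTL and orange symbols are Nelfb-/-, and for all 8 clade A genes the orange symbols lie above the blue ones.

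**Figure D2:**
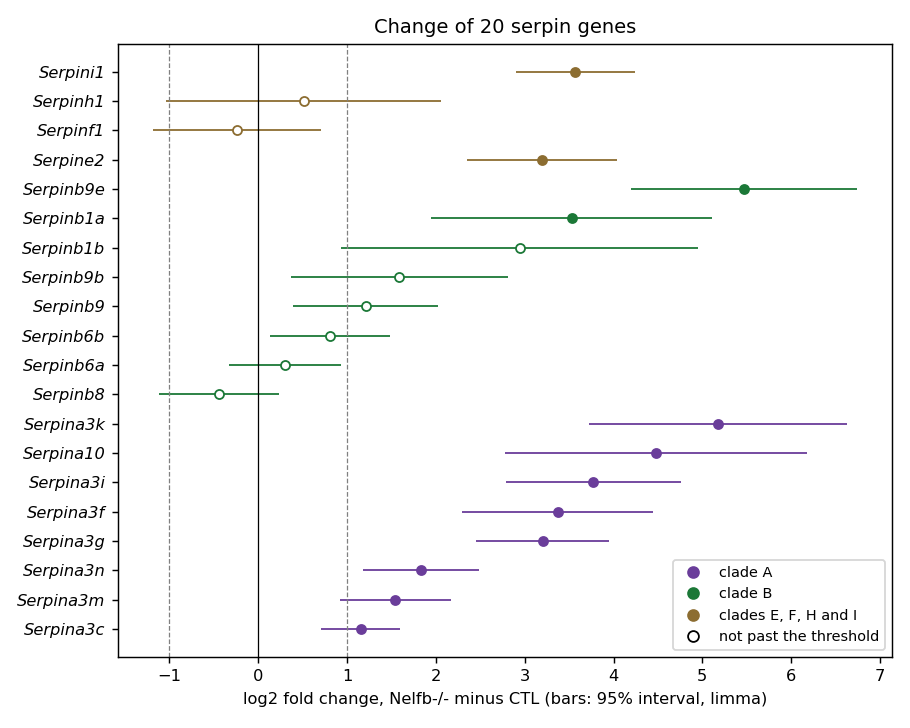
Log2 fold change of 20 of the serpin genes tested, Nelfb-/- relative to CTL, with the 95% interval from limma and dashed lines at 2-fold. Filled symbols mark the 12 genes past the threshold, and the value of Serpinb9e depends on the pseudocount because all 3 CTL libraries held 0 reads.

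The clade A serpins detected in these cells were Serpina10 and 7 of the 10 annotated Serpina3 genes, and every one was upregulated. In humans the Serpina3 group is a single gene for alpha1-antichymotrypsin, an acute phase protein, and in the mouse it has been duplicated into a cluster. Serpina3n, which inhibits granzyme B and leukocyte elastase, was the most abundant of them per length of transcript and was measured at 233, 298 and 416 CPM in CTL cultures and 905, 1342 and 1081 CPM in Nelfb-/- cells. The groups did not overlap, and the lowest Nelfb-/- library held more than the highest CTL library. The gene (ENSMUSG00000021091) lies at chr12:104406729-104414329 on the plus strand. Its mean of 316 ± 93.2 CPM (SD, n = 3) rose 3.51-fold to 1109 ± 219.7 CPM (log2 fold change 1.84, SE 0.27, limma, adjusted p = 0.010).

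Serpina3k (ENSMUSG00000058207, chr12:104338486-104346144, plus strand), the mouse kallikrein-binding protein, had the largest log2 fold change among the clade A genes on the log2(reads + 1) scale, while Serpina10, near the floor in CTL, was close to it in the fold of the means. It stood at 2.99, 4.03 and 0.722 CPM in CTL and rose to 86.3, 83.5 and 62.2 CPM in Nelfb-/- cells, with the lowest value in CTL replicate 3. The mean rose 29.9-fold (log2 fold change 5.18, SE 0.61, limma, adjusted p = 0.0058), and the log2 value stayed between 4.44 and 5.65 with any 1 library left out. Serpina3m (ENSMUSG00000079012, chr12:104338486-104394257, plus strand) went from 17.4, 29.2 and 31.3 CPM to 79.2, 83.2 and 59.9 CPM (1.54, SE 0.26, adjusted p = 0.014). In GENCODE the gene model of Serpina3m spans that of Serpina3k on the same strand, and 14.0% of the 50-base windows of Serpina3k transcripts also occur in transcripts of other genes, 12.8% in Serpina3m. How the counting divided reads between these genes is not given in the sources used here, so their separate levels are uncertain.

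Serpina3g, Serpina3f and Serpina3i lie in the middle of the cluster and had log2 fold changes between 3.20 and 3.77. Serpina3g, an inhibitor of cysteine cathepsins inside cells, was measured at 3.75, 3.40 and 5.29 CPM in CTL cultures and 25.0, 44.1 and 49.3 CPM in Nelfb-/- cells (log2 fold change 3.20, SE 0.31, limma, adjusted p = 0.0041). Serpina3f was at 0.955, 1.22 and 2.59 CPM against 10.6, 22.3 and 15.5 CPM (3.37, SE 0.45, adjusted p = 0.0078). Serpina3i was low in CTL, at 0.353, 0.329 and 0.864 CPM, and reached 6.04, 7.23 and 7.69 CPM (3.77, SE 0.41, adjusted p = 0.0051). Serpina3f (ENSMUSG00000066363) lies at chr12:104214544-104221129, Serpina3g (ENSMUSG00000041481) at chr12:104236245-104241939 and Serpina3i (ENSMUSG00000079014) at chr12:104263122-104269372, all on the plus strand. For all 3 genes CTL replicate 3 was the highest of the CTL libraries and still lay below every Nelfb-/- library. Between 10.6% and 15.9% of the 50-base windows of these 3 genes recur in other genes, mostly of the same cluster.

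Serpina3c (ENSMUSG00000066361, chr12:104146382-104153870) and Serpina10 (ENSMUSG00000061947, chr12:103614786-103631444) lie on the minus strand and differed widely in their level in CTL. Serpina3c already had a clear level in CTL, at 30.0, 24.5 and 24.7 CPM, and changed least of the 8 genes, to 72.7, 55.8 and 49.4 CPM (log2 fold change 1.15, SE 0.19, limma, adjusted p = 0.012). Without Nelfb-/- replicate 1 its log2 fold change was 0.997, and it was 0.95 without that library and CTL replicate 3, just below the limit of 2-fold. Serpina10, the protein Z-dependent inhibitor of factor Xa, was near the floor in CTL with 0, 3 and 4 reads, or 0, 0.140 and 0.136 CPM. It stood at 1.38, 3.14 and 3.59 CPM in Nelfb-/- cells (4.48, SE 0.71, adjusted p = 0.012), and it passed the filter only through these libraries. Without Nelfb-/- replicate 3, 5 of the 8 clade A genes remained past the threshold, since Serpina10, Serpina3m and Serpina3n then had adjusted p-values of 0.066, 0.051 and 0.056. Their log2 fold changes stayed at 4.22, 1.69 and 1.84. Serpina10 and Serpina3m also missed the threshold without Nelfb-/- replicate 2, with adjusted p-values of 0.0503 and 0.054, and Serpina3c missed it without CTL replicate 2, with 0.057 (limma).

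The 8 clade A genes lie within 799.5 kb of chromosome 12, from 103614786 to 104414329 (GRCm38). Serpina10 lies at one end, and the Serpina3 genes run from Serpina3c, starting at 104146382, to Serpina3n, ending at 104414329. Within the span and 500 kb to either side, 11 genes without a serpin symbol were tested, 0 of them were called (limma), and their median log2 fold change was -0.10. The pseudogene Serpina3h, which the rule leaves out, lies between Serpina3g and Serpina3i and shares 8.89% and 9.82% of their 50-base windows. It was called higher, at 4.23 on the log2 scale (SE 1.03, limma, adjusted p = 0.039), and it was named here after its values were seen. Its CTL mean of 0.213 CPM lay under the filter, so it was tested only through the Nelfb-/- libraries and had to be higher.

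**Figure D3:**
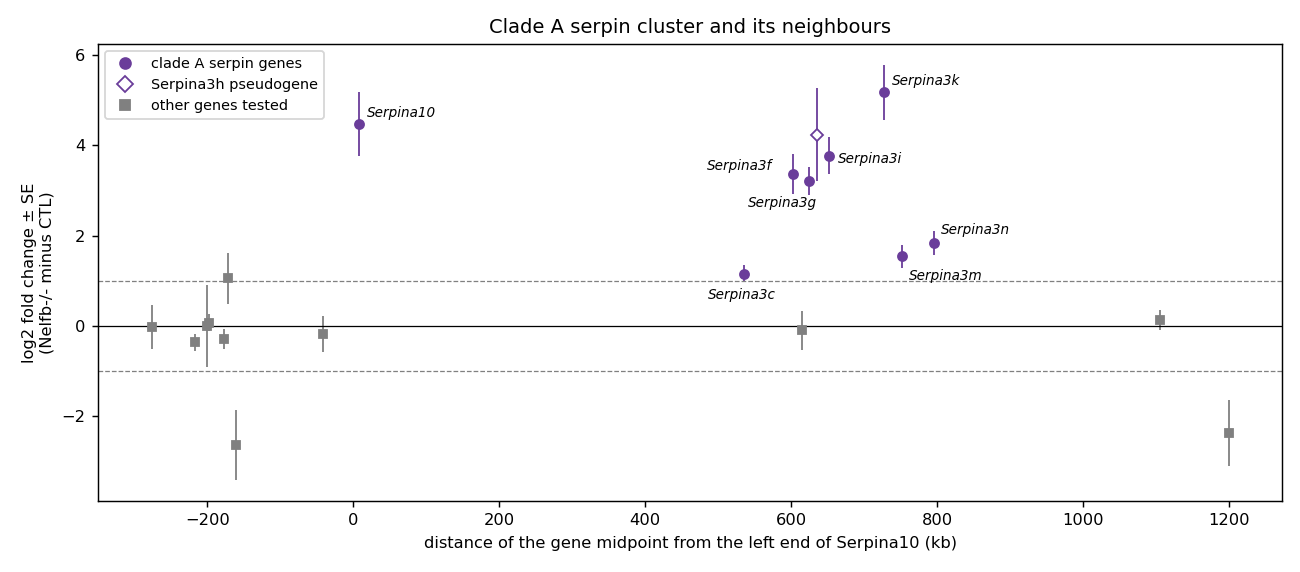
Log2 fold change with its standard error for each tested gene in and around the clade A cluster, placed by the distance of its midpoint from the left end of Serpina10. The 8 clade A serpins (purple) lie between 1.15 and 5.18, the open diamond is the pseudogene Serpina3h, and none of the 11 other genes (grey) passed the threshold.

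The promoters of 5 Serpina3 genes follow, because the genes lie in 1 cluster and were all upregulated, and the letters they share and do not share can be read side by side. Each line gives 250 bases before and 50 bases after the start that RefSeq lists on GRCm38.p6, 5′ to 3′ on the strand of the gene. Capitals mark matches to TATAAA, the TATA box, or to TTCNNNGAA, the letters that STAT factors recognise, each searched on both strands.
Serpina3c: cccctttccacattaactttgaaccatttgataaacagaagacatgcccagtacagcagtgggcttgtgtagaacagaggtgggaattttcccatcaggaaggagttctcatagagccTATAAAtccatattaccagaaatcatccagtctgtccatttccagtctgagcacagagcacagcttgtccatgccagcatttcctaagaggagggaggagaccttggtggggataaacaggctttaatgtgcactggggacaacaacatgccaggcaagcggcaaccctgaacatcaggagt
Serpina3f: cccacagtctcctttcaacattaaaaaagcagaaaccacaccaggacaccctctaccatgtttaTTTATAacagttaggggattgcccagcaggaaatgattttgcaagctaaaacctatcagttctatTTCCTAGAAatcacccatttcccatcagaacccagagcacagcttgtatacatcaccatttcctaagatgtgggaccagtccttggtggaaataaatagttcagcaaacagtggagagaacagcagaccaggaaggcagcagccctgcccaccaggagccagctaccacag
Serpina3g: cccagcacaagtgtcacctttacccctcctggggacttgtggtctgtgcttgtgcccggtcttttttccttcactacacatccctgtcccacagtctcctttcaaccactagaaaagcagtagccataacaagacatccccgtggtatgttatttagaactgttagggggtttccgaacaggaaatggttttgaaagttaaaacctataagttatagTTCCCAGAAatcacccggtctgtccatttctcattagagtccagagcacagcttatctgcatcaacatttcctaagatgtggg
Serpina3i: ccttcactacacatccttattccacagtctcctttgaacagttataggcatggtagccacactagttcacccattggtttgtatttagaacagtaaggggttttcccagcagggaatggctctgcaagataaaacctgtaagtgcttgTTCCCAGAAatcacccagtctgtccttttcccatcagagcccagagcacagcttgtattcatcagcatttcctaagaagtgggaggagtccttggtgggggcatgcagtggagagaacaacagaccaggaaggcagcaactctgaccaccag
Serpina3n: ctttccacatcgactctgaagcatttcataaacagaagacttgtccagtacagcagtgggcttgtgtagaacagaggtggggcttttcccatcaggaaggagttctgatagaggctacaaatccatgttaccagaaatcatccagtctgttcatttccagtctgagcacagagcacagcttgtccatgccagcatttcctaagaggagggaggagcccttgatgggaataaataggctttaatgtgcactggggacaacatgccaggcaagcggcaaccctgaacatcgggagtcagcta

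The windows lie on chromosome 12 at chr12:104153823-104154122 (minus strand) for Serpina3c and, on the plus strand, at chr12:104214294-104214593 for Serpina3f, chr12:104235897-104236196 for Serpina3g, chr12:104262872-104263171 for Serpina3i and chr12:104406458-104406757 for Serpina3n. Of the 26 serpins, 21 had a window of this kind, and among those without one were Serpina10, Serpina3k, Serpina3m and Serpinb1a. The windows of Serpina3c and Serpina3n were 89.9% identical, and the other pairs of the 5 lay between 38.0% and 67.7%, with the lowest for pairs with Serpina3g, whose RefSeq start lies 98 bases from the start in the table. All 5 windows shared an unbroken stretch of 13 bases, CAGAGCACAGCTT, which was picked because they share it. Of 32851 windows of all genes 7 (0.0213%) held it, the 5 included, so this share is set by the choice of the stretch. It starts 61 to 89 bases before the listed start in 4 of the genes and 9 bases after it in Serpina3g.

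The STAT letters were found in 3 of the 5 windows, as TTCCTAGAA at 121 bases before the start of Serpina3f and as TTCCCAGAA at 33 bases before that of Serpina3g and 102 bases before that of Serpina3i. Over all windows 8.30% held these letters, and 5 of the 21 serpin windows did. The 9 bases at the same place in Serpina3c and Serpina3n, just before the letters ATCANCC that each of the 5 windows holds, read TTACCAGAA. This was noticed after the sequences and values had been seen. Serpina3c and Serpina3n had log2 fold changes of 1.15 and 1.84, and the 3 genes with the STAT letters had 3.37, 3.20 and 3.77. The other 2 serpins with the STAT letters were Serpinb6a, with 2 matches and 0.30 (limma, adjusted p = 0.48), and Serpinb2, which was below the filter. With 5 windows that share a cluster, this is a description of the letters and the levels. TATAAA stood 132 bases before the start of Serpina3c and, on the other strand, 186 bases before that of Serpina3f, and 13.6% of all windows held it. No match to either motif overlapped a match to the other. The letters TGANTCA, recognised by AP-1, were in 0 of the 5 windows and in 7.81% of all windows, and CCAAT was in 1 of the 5, that of Serpina3i, and in 37.4% of all.

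Markers of 2 other cell types that express clade A serpins were read in the same libraries. Of the 6 hepatocyte markers 3 were in the table, and their sums were 1.70 to 5.69 CPM in CTL cultures and 4.90 to 7.97 CPM in Nelfb-/- cells. Alb, the gene for serum albumin, was at 1.04, 1.82 and 1.12 CPM against 7.16, 4.19 and 4.69 CPM (log2 fold change 1.98, SE 0.34, limma, adjusted p = 0.015). Apoa1, an apolipoprotein gene and the other marker tested, stood at 2.62, 3.87 and 0.578 CPM in CTL and at 0.284, 0.291 and 0.082 CPM in Nelfb-/- cells, all below CTL but not past the threshold (-2.95, SE 0.80, adjusted p = 0.052). The macrophage markers were highest in Nelfb-/- replicate 1, whereas Serpina3n, Serpina3f, Serpina3g, Serpina3i and Serpina10 were lowest there among the Nelfb-/- libraries and Serpina3c and Serpina3k were highest there. The part of either cell type in these results was not tested.

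The genes of the acute phase, the change in plasma proteins during inflammation to which the Serpina3 genes belong, moved in both directions. Of 17 acute phase genes tested, 5 were higher and 1 was lower in Nelfb-/- cells, against 7.58% and 3.64% of all genes tested. The log2 fold change was positive for 12 of the 17 and negative for 5, with a median of 0.41. Hpx, the gene for the heme carrier hemopexin, was at 0.586, 1.12 and 0.782 CPM in CTL cultures and 12, 12.5 and 11.3 CPM in Nelfb-/- cells (log2 fold change 3.82, SE 0.29, limma, adjusted p = 0.0033). C3, the central complement component, stood at 1222, 1248 and 768 CPM in CTL and at 212, 85.9 and 97.3 CPM in Nelfb-/- cells (-3.12, SE 0.39, adjusted p = 0.0064). Only 1 of the 17 genes was called higher without CTL replicate 2, Nelfb-/- replicate 2 or Nelfb-/- replicate 3.

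The clade B serpins, which lack a secretion signal and act largely in the cytoplasm and nucleus, fell into 2 gene clusters, with 9 genes within 1161 kb of chromosome 13 (32842092 to 34002794) and 3 genes within 211 kb of chromosome 1 (107399655 to 107610484). Of the 7 genes tested on chromosome 13, 2 were upregulated, against 7.58% of all genes tested. All 7 had a positive log2 fold change, as had 8868 of all 16252 genes tested. The only gene tested on chromosome 1, Serpinb8, had a negative one. For 6 of the 8 genes the libraries of the groups did not overlap, and the Nelfb-/- libraries were the higher ones. Among 11 other genes tested within 500 kb of the chromosome 13 cluster, 2 were higher, Nqo2 and the predicted gene Gm6093, which were named after their values were seen, and 0 were lower.

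Serpinb1a (ENSMUSG00000044734, chr13:32842092-32851185, minus strand) encodes an inhibitor of neutrophil elastase and related leukocyte proteases. It was measured at 0.631, 0.373 and 2.41 CPM in CTL and at 7.30, 12.7 and 11.3 CPM in Nelfb-/- cells, without overlap. The log2 fold change came to 3.53, with SE 0.66 and an adjusted p of 0.018 (limma). The adjusted p lay between 0.055 and 0.081 when CTL replicate 1, CTL replicate 2, Nelfb-/- replicate 2 or Nelfb-/- replicate 3 was left out, while the log2 fold change stayed between 2.99 and 3.45. Without CTL replicate 2, Nelfb-/- replicate 2 or Nelfb-/- replicate 3, 1 clade B gene was called.

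That gene was Serpinb9e (ENSMUSG00000062342, chr13:33249612-33260850, plus strand). It held 0 reads in all 3 CTL libraries and 22, 51 and 57 reads in Nelfb-/- cells, or 1.04, 2.98 and 2.33 CPM. Against a floor of 3 reads per CTL library its level was at least 16.8-fold higher. It passed the filter only through the Nelfb-/- libraries, so its adjusted p of 0.0041 (limma) adds little to this. Of its 50-base windows, 28.4% recur in other genes, 18.7% in Serpinb9f. Serpinb9f was below the filter, with at most 1 read in each CTL library and 0.267 to 1.12 CPM in Nelfb-/- cells, and 78.7% of its windows recur elsewhere. Reads of these copies may thus have been divided between them, and which copy they came from is uncertain.

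Serpinb9, the mouse counterpart of the granzyme B inhibitor of cytotoxic lymphocytes, lay just outside the threshold. Its levels were 16.0, 14.5 and 14.7 CPM in CTL cultures and 61.3, 26.5 and 26.2 CPM in Nelfb-/- cells (log2 fold change 1.21, SE 0.34, limma, adjusted p = 0.059). The groups did not overlap, and Nelfb-/- replicate 1 stood well above the other libraries. Without that library the log2 fold change was 0.80 (limma, adjusted p = 0.020), under 2-fold. Serpinb9b (1.48 to 4.32 CPM in CTL, 5.12 to 11 CPM in Nelfb-/- cells, adjusted p = 0.083), Serpinb1b (0 to 0.316 CPM and 0.524 to 1.38 CPM, adjusted p = 0.061) and Serpinb6b (1.45 to 2.03 CPM and 2.74 to 3.92 CPM, adjusted p = 0.10) likewise had no overlap and no call. Serpinb9b was called without CTL replicate 3 (log2 value 2.07, limma, adjusted p = 0.022) and without that library and Nelfb-/- replicate 1 (1.71, adjusted p = 0.0011), and Serpinb1b was called without CTL replicate 1 (3.72, adjusted p = 0.047) and with a pseudocount of 10 reads (1.28, adjusted p = 0.047). Serpinb8, an inhibitor of the protease furin, ranged from 17.9 to 24.9 CPM in CTL and from 10.5 to 20.8 CPM in Nelfb-/- cells (-0.44, SE 0.28, adjusted p = 0.33).

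Serpinb6a, an inhibitor of cathepsin G and of trypsin-like proteases, was the most abundant clade B gene per length. It was measured at 217, 230 and 216 CPM in CTL and at 411, 217 and 225 CPM in Nelfb-/- cells. Only Nelfb-/- replicate 1 left the range of the other 5 libraries, and the log2 fold change of 0.30 had a 95% interval from -0.33 to 0.93 (limma, adjusted p = 0.48). Serpinb6a overlaps Nqo2, Ripk1 and a noncoding gene on the opposite strand, and 25.1% of its windows are shared with them or other genes, so part of its reads is uncertain if strand was not used in the counting.

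The other clade B genes lay below the filter. When all genes were fitted without it, Serpinb9f passed the threshold as well (log2 value 3.16, SE 0.67, limma, adjusted p = 0.026), and Serpinb2, Serpinb7 and Serpinb1c had adjusted p-values of 0.094, 0.075 and 0.20. Serpinb2, an inhibitor of plasminogen activators, had 0, 0 and 10 reads in CTL and 19, 6 and 17 reads in Nelfb-/- cells. Serpinb7, a serpin of the epidermis, ranged from 0.045 to 0.068 CPM in CTL and from 0.142 to 0.694 CPM in Nelfb-/- cells. Serpinb1c had 0 to 0.187 CPM and 0.116 to 0.522 CPM, and its groups overlapped.

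Clade B genes are expressed in leukocytes and in keratinocytes, and markers of both were higher in Nelfb-/- cells. The macrophage sums were 678, 358 and 174 CPM in CTL cultures and 5340, 1714 and 2905 CPM in Nelfb-/- cells. Nelfb-/- replicate 1, which was highest in these markers, was also highest in Serpinb9, Serpinb9b, Serpinb6a and Serpinb1b, whereas Serpinb1a and Serpinb9e were lowest there among the Nelfb-/- libraries. Of the 10 keratinocyte markers 7 were in the table and 6 were tested, and 3 were higher. Of these 3, Krt14 passed the filter only through the Nelfb-/- libraries and so had to be higher. The list summed to 4.20 to 4.59 CPM in CTL cultures and 11 to 25.5 CPM in Nelfb-/- cells. The part of these cells in the clade B levels was not tested. Serine proteases of leukocytes are known targets of clade B serpins. Of 16 such genes of leukocytes and mast cells only 6 were in the table and 2 were tested, with 0 calls in either direction by limma, 0 at an unadjusted p under 0.05, and summed levels of 0.986 to 12.7 CPM in CTL cultures and 1.31 to 7.07 CPM in Nelfb-/- cells. Most of the sum in CTL replicates 1 and 2 was Prtn3, a neutrophil protease gene, at 9.34 and 11.04 CPM. Of 7 mast cell markers 1 was tested and not called, and the 5 in the table summed to 1.46 to 4.81 CPM and 2.50 to 11 CPM.

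Cathepsins, the lysosomal proteases that Serpina3g and some clade B serpins can bind, were abundant in both groups. Their sums were 4353, 4003 and 3099 CPM in CTL cultures and 12446, 5578 and 6458 CPM in Nelfb-/- cells, and the groups did not overlap. Of 11 genes tested 1 was higher, against 7.58% of all genes tested. This was Ctss, a cathepsin of macrophages, at 159, 67.5 and 36.4 CPM in CTL cultures and 1015, 249 and 408 CPM in Nelfb-/- cells (log2 fold change 2.68, SE 0.68, limma, adjusted p = 0.044). The call was lost without CTL replicate 2, without each Nelfb-/- replicate and in a fit with no abundance trend. As with the macrophage sums, its highest value was in Nelfb-/- replicate 1. The part of macrophages in its level was not tested.

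The remaining serpins belong to clades C to I, and 2 of them, Serpine2 and Serpini1, were upregulated. Both are known to inhibit tissue-type plasminogen activator, and Serpine2, also known as protease nexin-1, is in addition a strong inhibitor of thrombin. The gene for Serpine2 (ENSMUSG00000026249) lies at chr1:79794197-79861180 on the minus strand. It was measured at 14.5, 14.0 and 34.9 CPM in CTL and at 169.5, 180.0 and 178 CPM in Nelfb-/- cells. The 3 Nelfb-/- libraries were nearly equal and stood well above CTL replicate 3, the highest of the controls. Its mean rose 8.32-fold (log2 fold change 3.19, SE 0.35, limma, adjusted p = 0.0053).

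Serpini1 (ENSMUSG00000027834, chr3:75557547-75643495, plus strand), neuroserpin, is best known as the inhibitor of tissue-type plasminogen activator in the nervous system. Its levels were 1.44, 1.17 and 2.24 CPM in CTL cultures and 19.9, 19.6 and 17.5 CPM in Nelfb-/- cells, without overlap. This was an 11.7-fold rise of the mean (log2 fold change 3.57, SE 0.28, limma, adjusted p = 0.0033), the lowest adjusted p of the family. Leaving out single libraries kept both genes called, with log2 fold changes of 2.96 to 3.62 for Serpine2 and 3.36 to 3.82 for Serpini1. Few of their 50-base windows recur in other genes, 0.30% for Serpine2 and 0.82% for Serpini1.

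Genes of the proteases that Serpine2 and Serpini1 inhibit were read next. Plasminogen activators turn plasminogen into plasmin, which dissolves fibrin and activates growth factors and matrix proteases. Of 8 genes of plasminogen activation tested, 4 were higher and 0 were lower in Nelfb-/- cells, against 7.58% and 3.64% of all genes tested. Their median log2 fold change was 1.21. Plat, the gene for tissue-type plasminogen activator, went from 5.86, 4.99 and 11.3 CPM in CTL to 147, 169 and 170.1 CPM in Nelfb-/- cells (log2 fold change 4.54, SE 0.31, limma, adjusted p = 0.0032). Plau, for the urokinase-type activator, was at 11.4, 11.2 and 13.9 CPM against 38.8, 21.1 and 28.1 CPM (1.22, SE 0.25, adjusted p = 0.023). Plaur, for the urokinase receptor, and Hgf, for a growth factor related to plasminogen, had log2 fold changes of 1.20 and 2.67. Plg, for plasminogen itself, was not analysed here. The count of 4 fell to 1 without CTL replicate 1 or Nelfb-/- replicate 3 and to 2 without CTL replicate 2 or Nelfb-/- replicate 2.

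**Figure D4:**
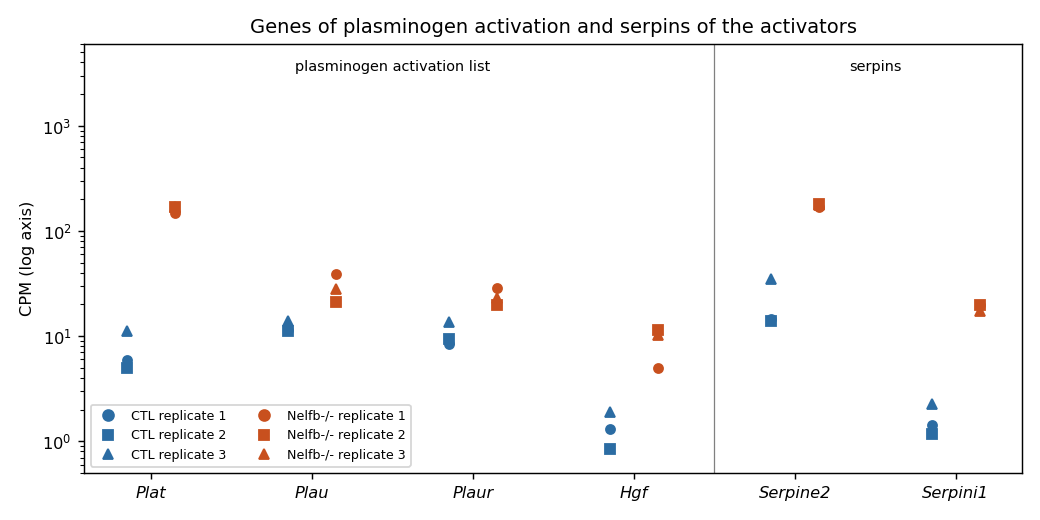
Level of 4 genes of plasminogen activation and of Serpine2 and Serpini1, in CPM on a log axis, with 1 symbol for each library. All 6 genes lie higher in each of the 3 Nelfb-/- libraries than in any CTL library.

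Blood coagulation, the other target of clades A, C and E, showed 3 higher and 0 lower among 9 genes tested. Over all genes tested the shares were 7.58% and 3.64%. The median log2 fold change of the 9 was 1.30. F13a1, the subunit of factor XIII that is also made by macrophages, was at 196, 94.7 and 63.8 CPM in CTL cultures and 1350.1, 594 and 1039 CPM in Nelfb-/- cells (log2 fold change 3.15, SE 0.48, limma, adjusted p = 0.011). Pros1, the anticoagulant protein S, and Thbd, the thrombin receptor thrombomodulin, had log2 fold changes of 2.12 and 1.38. The count was 1 without Nelfb-/- replicate 3 and 5 without CTL replicate 3. The 6 endothelial cell markers, with 1 higher, summed to 7.85 to 10.5 CPM in CTL cultures and 8.15 to 21.8 CPM in Nelfb-/- cells. The 1 called higher, Emcn, passed the filter only through the Nelfb-/- libraries and so had to be higher. Serpinc1, antithrombin, was below the filter, with 0.183 to 0.522 CPM in CTL cultures and 0.058 to 0.126 CPM in Nelfb-/- cells, and it was the only member whose Nelfb-/- libraries all lay below CTL. Without the filter its log2 value was -1.50 (limma, adjusted p = 0.12). Of its windows 33.6% recur in other genes, chiefly Zbtb37 on the opposite strand.

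Serpine2 and Serpini1 are also expressed in the nervous system, and the glial and pigment cell markers of the libraries are given here for that reason. Of the 5 Schwann cell markers 3 were in the table, and they summed to 41.9 to 57.1 CPM in CTL cultures and 86.0 to 109 CPM in Nelfb-/- cells. Sox10, a factor of neural crest cells, was higher (log2 fold change 2.62), and Mbp, a myelin gene, was lower (-1.23, SE 0.30, limma, adjusted p = 0.038). All 5 melanocyte markers were in the table, with sums of 48.6 to 73.7 CPM in CTL cultures and 49.5 to 163 CPM in Nelfb-/- cells. The sums were carried by Mitf, a transcription factor of pigment and other cells, at 47.2 to 72.4 CPM in CTL and 21.6 to 96.3 CPM in Nelfb-/- cells, which was not called. The other 4 were higher, and of these the pigment enzyme genes Tyrp1 and Dct lay between 0 and 0.442 CPM in CTL and between 11.5 and 34.9 CPM in Nelfb-/- cells. Tyrp1, Dct and Mlana had CTL means under the filter, passed it only through the Nelfb-/- libraries and so had to be higher. The part of these cells in the levels of Serpine2 and Serpini1 was not tested.

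Serpinh1 and Serpinf1 were among the most abundant serpins per length, and neither passed the threshold. Serpinh1 (ENSMUSG00000070436, chr7:99345376-99353239, minus strand), or HSP47, binds procollagen in the endoplasmic reticulum and does not inhibit proteases. Its levels were 553, 488 and 1561 CPM in CTL cultures and 468, 1623 and 1611 CPM in Nelfb-/- cells. Each group held both low and high libraries, CTL replicate 3 being high and Nelfb-/- replicate 1 low, and the log2 fold change of 0.51 had a 95% interval from -1.03 to 2.06 (SE 0.65, limma, adjusted p = 0.62). Without these libraries it was 1.64 (adjusted p = 1.3e-04), a comparison of 2 libraries against 2 that was chosen after their place in the principal component analysis was seen.

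Genes of procollagen folding and processing were read beside Serpinh1. The 23 genes of the list summed to 5536, 5167 and 11930 CPM in CTL and to 5940, 13417 and 13059 CPM in Nelfb-/- cells, in which CTL replicate 3 and Nelfb-/- replicates 2 and 3 were the high libraries, as for Serpinh1. Of the 23 genes, 1 was higher and 0 were lower, against 7.58% and 3.64% of all genes tested. The median log2 fold change was 0.61. The gene called was Bmp1, the procollagen C-proteinase, at 47.9, 52.6 and 105 CPM in CTL cultures and 176, 442 and 402 CPM in Nelfb-/- cells (log2 fold change 2.29, SE 0.45, limma, adjusted p = 0.020). The count was 0 without CTL replicate 1, CTL replicate 2, Nelfb-/- replicate 2 or Nelfb-/- replicate 3, it was 4 without CTL replicate 3 and 3 without Nelfb-/- replicate 1, and it was 18 without both of the latter.

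**Figure D5:**
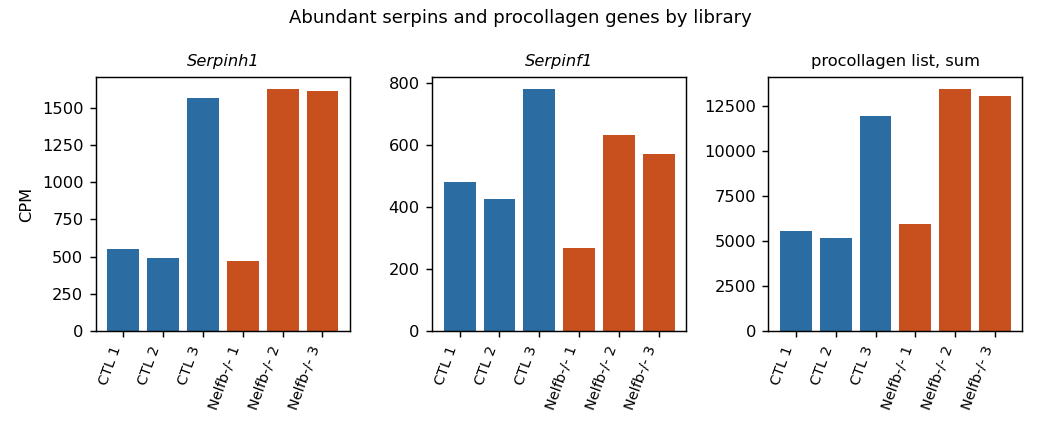
Level of Serpinh1 and Serpinf1 and the summed level of the 23 procollagen genes in each library, in CPM, with bars from 0 (blue, CTL, and orange, Nelfb-/-). CTL replicate 3 stands above the other CTL libraries in all 3 panels, and Nelfb-/- replicate 1 is the lowest Nelfb-/- library in each.

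Serpinf1 (ENSMUSG00000000753, chr11:75409769-75422701, minus strand), pigment epithelium-derived factor, is a secreted protein that restrains the growth of blood vessels and is made by fat cells and fibroblasts. It stood at 480.5, 425 and 780.3 CPM in CTL and at 269.6, 633 and 570.5 CPM in Nelfb-/- cells. The groups overlapped, and the log2 fold change of -0.24 had a 95% interval from -1.18 to 0.71 (SE 0.39, limma, adjusted p = 0.71). Its sign was positive without CTL replicate 3 (0.026) and without Nelfb-/- replicate 1 (0.15).

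Levels can be compared between genes only per length of transcript, in CPM per kb of exon. On this scale Serpinh1 led in CTL with a mean of 355 CPM per kb, above Serpinf1 (238) and Serpina3n (153). Given the spread of the libraries, Serpinh1 from 199.6 to 639 CPM per kb and Serpinf1 from 180.2 to 331, the ranges of these 2 genes overlapped, although Serpinh1 was the higher one within each of the 6 libraries. In Nelfb-/- cells Serpina3n came first with 537 CPM per kb and a range of 438 to 650.1, next to Serpinh1 with 505 and a range of 191 to 665. The order by mean rests on Nelfb-/- replicate 1, since Serpinh1 was the higher one in replicates 2 and 3 (665 and 659 against 650.1 and 524 CPM per kb). Serpina3k was 12th of the 26 serpins in CTL and 7th in Nelfb-/- cells on this scale, with 1.26 and 37.6 CPM per kb. Serpinb6a lay below Serpinh1, Serpinf1 and Serpina3n in both groups with 40.8 and 52.6 CPM per kb.

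The make-up of the serpin RNA shifted with this. Clade A genes made up 17.9%, 20.9% and 13.3% of the summed CPM per kb of all serpins in CTL and 42.9%, 36.2% and 32.8% in Nelfb-/- cells. The groups did not overlap, and Serpina3n alone accounted for 11.4% to 17.1% in CTL and 26.6% to 32.5% in Nelfb-/- cells. Serpine2, in spite of its change, remained a small part, at 0.200% to 0.238% and 0.985% to 1.51%.

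Protease inhibitor genes outside the naming rule, among them the serpin Serping1, moved in both directions. Of 11 such genes tested, 1 was higher and 2 were lower, against 7.58% and 3.64% of all genes tested. Their median log2 fold change was -0.056. Slpi, which inhibits leukocyte elastase, rose from 0.135, 0.467 and 0.238 CPM in CTL to 1.09, 2.56 and 2.08 CPM (log2 fold change 2.64, SE 0.54, limma, adjusted p = 0.024). Its CTL mean of 0.28 CPM lay under the filter, so it was tested only through the Nelfb-/- libraries and had to be higher. Itih5, a hyaluronan-binding member of the inter-alpha-trypsin inhibitor family that is made by fat cells, stood at 528, 554 and 275 CPM in CTL cultures and 36.3, 59.6 and 48.3 CPM in Nelfb-/- cells (-3.20, SE 0.32, adjusted p = 0.0042). Itih4 of the same family was at 1.58, 1.40 and 2.55 CPM against 0, 0 and 0.082 CPM (limma, adjusted p = 0.0060). Its Nelfb-/- mean of 0.027 CPM lay under the filter, so it was tested only through the CTL libraries and had to be lower in Nelfb-/- cells. Slpi was not called without CTL replicate 1, Nelfb-/- replicate 2 or Nelfb-/- replicate 3, and 4 genes of the list were lower without CTL replicate 3.

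Among serine proteases of the cell surface and the extracellular space, 2 of 14 genes tested were higher and 1 was lower. Fap, a protease of activated fibroblasts that cleaves alpha2-antiplasmin, was at 2.21, 1.87 and 3.09 CPM in CTL cultures and 11.7, 14.6 and 14.6 CPM in Nelfb-/- cells (log2 fold change 2.51, SE 0.25, limma, adjusted p = 0.0042). Dpp4, its close relative, was also higher and C1ra, a protease of the first complement component, was lower. Without CTL replicate 1, Nelfb-/- replicate 2 or Nelfb-/- replicate 3 the higher count was 1, and the lower count was 0 without those or CTL replicate 2 and 2 without CTL replicate 3 or Nelfb-/- replicate 1. Over the 95 genes of these lists tested, 17 were higher and 4 were lower, against 7.58% and 3.64% of all genes tested.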

How the data were processed

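The authors sequenced RNA of 3 CTL and 3 Nelfb-/- cultures on an Illumina NovaSeq and deposited 1 table with 6 columns of values for 17924 genes. Per the submitters' processing notes STAR 2.7, Partek 9.0.20.0202 and mm10 were used, and the authors' own test left out genes under 10 reads, some of which the table lists. The counting tool and its use of strand are not given in the sources used here. The values deposited by the authors are CPM plus an offset of 0.0001, and each column sums to 1e+06. Subtracting the offset and dividing by the value of 1 read gave depths of 17.2 to 29.4 M reads, but only 72.4% to 74.9% of values up to 20 reads came out whole (within 0.05 reads), so no count test was run. Floors cover counting error only, and the limma intervals rest on the spread between cultures.

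Values were brought to a depth of 22.3 M reads, 1 read was added, and genes with a mean of 10 reads or more were fitted with limma 3.58.1 (abundance trend in the prior variance) in R 4.3.3, with Benjamini-Hochberg adjustment over 16252 genes. With 3 against 3 a permutation test cannot go below p = 0.1. The tests were checked on simulated data. All serpin genes are accounted for: called genes with all values, others by range (1 is counted but not reported here), the most abundant per length with values, and of the other lists at most 4 called genes with the largest change. The serpins and the lists were chosen with earlier results of these data known. Gene models came from GENCODE vM21 (17551 genes matched) and promoters from RefSeq (GRCm38.p6). Shared sequence was counted in 50-base windows of GENCODE transcripts. Python 3.11.15, pandas 2.3.3 and Biopython 1.88 were used.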

Additional observations from a re-analysis of the deposited data

How the results depend on the processing

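Each library in turn was left out, and the pseudocount, the filter, the scaling, the abundance trend, the fold limit and a replicate block were changed. The count of upregulated serpins lay between 8 and 14 in all these settings and that of downregulated ones stayed at 0. Of 95 genes tested in the protease, inhibitor and partner lists, 17 were higher with all libraries (against 7.58% of all genes) and 4 to 23 with 1 library left out, and 4 (against 3.64%) and 3 to 9 were lower. Without CTL replicate 3 and Nelfb-/- replicate 1, a setting chosen after seeing the data, 46 were higher and 12 were lower, and the cause was not tested. Serpinf1, with a log2 fold change of -0.24, ranged from -0.47 to 0.15 with 1 library left out, was 0.026 without CTL replicate 3, and was 0.41 in the 4 libraries. Serpinb6a was -0.015 there. Median-of-ratios scaling moved the median log2 fold change of all genes from 0.068 to 0.0025 and gave the same 12 serpins. The replicate block called 14 serpins higher, with Serpinb1b and Serpinb9 added (adjusted p = 0.027 and 0.033), and list genes were higher in 22 cases and lower in 6. The numbers do not pair the cultures, since the correlations of same-numbered deviations were 0.52, -0.39 and 0.52.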

Other observations

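Serpina3h, annotated as a transcribed pseudogene between Serpina3g and Serpina3i (chr12:104247905-104253669, plus strand), held 0.361, 0 and 0.277 CPM in CTL cultures and 1.19, 4.49 and 6.88 CPM in Nelfb-/- cultures, with the lowest of the latter in replicate 1 as for Serpina3f and Serpina3g. Because 8.89% of the windows of Serpina3g and 9.82% of those of Serpina3i also occur in it, its reads and theirs cannot be fully separated. Serping1, the complement C1 inhibitor that the naming rule leaves out, moved the other way without a call. Its levels were 142, 174 and 114 CPM in CTL cultures against 62.8, 111 and 70.3 CPM in Nelfb-/- cultures (log2 fold change -0.84, SE 0.26, limma, adjusted p = 0.077).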
